A study of Canis lupus familiaris with 29 samples.

Results

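The amino acid transporter genes of MDCK cells, an epithelial line from dog kidney, were described across all 8 groups of an Affymetrix canine array study. Members were chosen by name: every gene whose symbol places it in solute carrier family SLC1, SLC3, SLC6, SLC7, SLC36, SLC38 or SLC43, on a probe set annotated to that gene alone. The rule found 54 genes on 101 probe sets, of 15115 genes named in this way on the whole array. Each gene was represented by its probe set with the highest mean level. Of the 54, 14 had a level of log2 5 or more in 3 or more of the 29 arrays and were tested, and the other 40 were dim and are given by level alone. One of the 54, SLC7A6OS, is named for its position opposite SLC7A6 and is not itself a transporter, and its probe set was dim. Membership follows the name alone, and what each member carries was not checked, so not every member need be an amino acid transporter.

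The cells were grown either within collagen (3D) or as a sheet on a transwell filter (2D). In each culture they received HGF with U0126 (3 arrays in 3D and 3 in 2D), HGF with PD-98059 (3 in 3D and 4 in 2D), HGF alone (4 and 4) or neither agent (the controls, 4 and 4). HGF is hepatocyte growth factor, the ligand of the receptor MET, and both inhibitors act on MEK, the kinase that activates ERK. Every inhibitor group also had HGF, no group had an inhibitor without it, and all groups were of a single cell line. The labels name neither a dose nor a time. The labels do not say whether replicates were separate cultures, so the p-values cover only array-to-array spread, and that spread may be technical.

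Amino acid transporters of these families differ in substrate and in what drives them. Many SLC1 and SLC6 members use the sodium gradient to concentrate glutamate, neutral amino acids, taurine or creatine. Many SLC38 members carry glutamine and other small neutral amino acids with sodium. SLC43A1 and SLC43A2 let branched-chain and aromatic amino acids pass down their gradient. SLC7 light chains work as exchangers and mostly need an SLC3 heavy chain to reach the membrane, and SLC36 members carry small amino acids with protons. In kidney tubules such transporters reclaim filtered amino acids, and in growing cells they supply glutamine, serine and leucine, whose supply is sensed at the lysosome by the mTORC1 machinery. Roles given below are those known mainly from human and rodent work.

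The arrays carried epithelial markers. Of 8 epithelial markers 6 were above the filter, and CDH1 and PAX8 had dim probe sets with no array above log2 3.84. No fibroblast marker (0 of 7) and no endothelial marker (0 of 4) passed, and of 4 leukocyte markers CD68 alone did. CD68 averaged log2 5.77 in 2D cells with HGF (4.70 to 6.79, n = 4), against 2.78 in 2D controls, while PTPRC, CSF1R and LYZ stayed at or below log2 3.26 in all arrays. Replicates within a group correlated at 0.9868 or above in 7 groups, and at 0.9641 or above among the 3D HGF arrays. An index of RNA quality, the signal of 3′ control probe sets minus that of 5′ or middle ones, averaged 0.838 in 2D HGF cells and 1.44 in 2D controls, and 1.68 in 3D HGF cells (1.09 to 2.46) and 1.93 in 3D controls. Fewer cells making an RNA and less of it per cell cannot be told apart in these bulk samples.

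Which transporters gave a signal differed by family. Among SLC38 genes 5 of 11 were tested, among SLC6 genes 4 of 16, among SLC1 genes 3 of 6 and among SLC43 genes 2 of 3. None of 12 SLC7 genes, none of 2 SLC3 genes and none of 4 SLC36 genes passed the filter. The dim genes include members that growing cells commonly use: SLC3A2 (the heavy chain CD98) averaged log2 2.77 over 29 arrays, SLC7A5 (the leucine exchanger LAT1) 1.97, SLC7A11 (the cystine exchanger xCT) 2.46, SLC7A1 (a cationic amino acid carrier) 3.50 and SLC38A2 (the glutamine carrier SNAT2) 2.32. A dim probe set can mean little RNA or probes that do not report the gene. The epithelial cadherin CDH1 was dim in these epithelial arrays too, so nothing is read here from a low level. SLC7A7 and SLC6A19, both central to amino acid handling in kidney, had no probe set naming them alone and were not analysed here.

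The transporter genes responded to HGF in both directions and not always alike in the 2 cultures. In 3D, SLC38A1, SLC38A5 and SLC1A5, which carry glutamine and other neutral amino acids, rose by 2.19 to 4.36 fold, while SLC38A6, SLC38A9, SLC1A1, SLC43A2, SLC6A6, SLC1A4 and SLC6A8 fell. In 2D, the same 3 neutral carriers rose, together with SLC1A4, SLC6A8 and SLC43A1, and SLC38A9, SLC43A2, SLC38A6 and SLC1A1 fell. These counts, 3 up and 7 down of 14 tested genes in 3D and 6 up and 4 down in 2D, stand beside 62.1% of all 16571 tested probe sets that passed in 3D and 55.4% in 2D. At 10 of 14 in each culture, or 71.4%, the genes' share is not far from that background and is no result about transporters. Their median difference was -0.27 in 3D and 0.07 in 2D, against -0.0025 and -0.03 over all tested probe sets. In 2D the RNA-quality index and CD68 also differed between HGF and control; with the index as a covariate 11 of the 14 genes passed there, and the part of CD68 in the result was not tested.

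**Figure D1:**
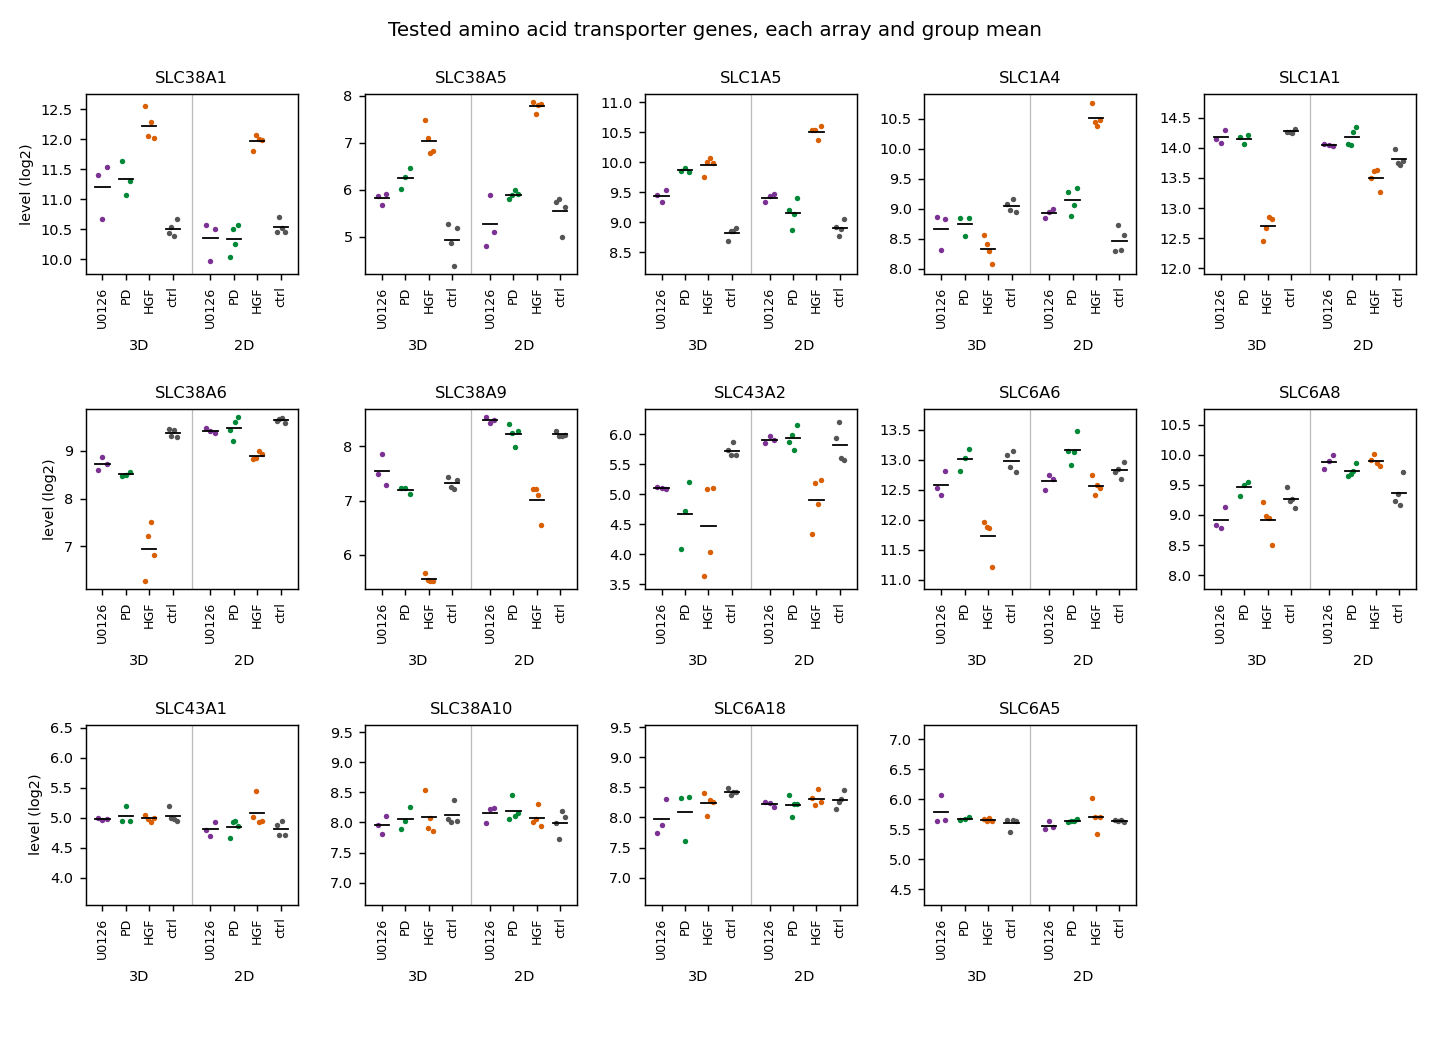
Levels (log2) of the 14 tested amino acid transporter genes, 1 panel a gene, with 1 point per array and a bar at each group's mean; U0126, PD (PD-98059) and HGF stand for cells with HGF and, in the first pair, an inhibitor, and ctrl for controls, with 3D groups left of 2D groups. SLC38A1, SLC38A5 and SLC1A5 stand higher with HGF than in controls in both cultures, SLC38A6 and SLC38A9 lower, and SLC1A4 higher in 2D and lower in 3D.

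Among the genes that rose in both cultures were 3 carriers of glutamine. SLC38A1, known as SNAT1, brings glutamine into the cell with sodium. Its levels in 3D were log2 12.55, 12.06, 12.29 and 12.02 with HGF and 10.44, 10.54, 10.39 and 10.67 in controls. In 2D they were 11.80, 12.07, 12.00 and 12.00 with HGF and 10.46, 10.71, 10.53 and 10.46 in controls. All 8 HGF arrays lay above all 8 control arrays. The difference was 1.72 ± 0.17 (SE) in 3D, or 3.29 fold (limma, adjusted p = 1.52e-09), and 1.43 ± 0.17 in 2D, or 2.69 fold (adjusted p = 5.03e-08). The 2 effects differed by 0.29 ± 0.24, which did not pass (adjusted p = 0.328).

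SLC38A5, or SNAT5, exchanges protons for sodium and glutamine, asparagine, histidine or serine, and can run in either direction. With HGF it stood at log2 7.48, 7.11, 6.78 and 6.83 in 3D, against 5.26, 4.87, 4.38 and 5.18 in 3D controls. In 2D it stood at 7.88, 7.61, 7.81 and 7.83 with HGF, against 5.74, 5.81, 4.99 and 5.63 in controls. The gene was thus near the filter level in controls and clear of it in every HGF array. It had the largest rise among the 14 genes in both cultures, 2.13 ± 0.21 in 3D (4.36 fold, adjusted p = 2.48e-09) and 2.24 ± 0.21 in 2D (4.72 fold, adjusted p = 1.2e-09). The 2 effects differed by -0.11 ± 0.30, which did not pass (adjusted p = 0.784).

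SLC1A5, known as ASCT2, exchanges neutral amino acids across the membrane and is a main route of glutamine entry in dividing cells. It read log2 9.76, 10.00, 10.07 and 9.99 in 3D cells with HGF and 8.69, 8.85, 8.85 and 8.90 in 3D controls. In 2D it read 10.53, 10.54, 10.37 and 10.59 with HGF and 8.92, 8.77, 8.89 and 9.05 in controls. No HGF array overlapped a control array. The rise was 1.13 ± 0.09 in 3D (2.19 fold, adjusted p = 8.24e-11) and 1.60 ± 0.09 in 2D (3.03 fold, adjusted p = 1.11e-13), and the effect was smaller in 3D by 0.47 ± 0.13 (adjusted p = 0.00477).

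SLC1A4, or ASCT1, exchanges alanine, serine, cysteine and threonine. It moved in opposite directions in the 2 cultures. In 3D its levels were log2 8.57, 8.42, 8.29 and 8.08 with HGF and 9.08, 8.98, 9.17 and 8.95 in controls. In 2D they were 10.76, 10.44, 10.38 and 10.49 with HGF and 8.29, 8.72, 8.32 and 8.56 in controls. The groups did not overlap in either culture, with HGF below control in 3D and above it in 2D. SLC1A4 fell by 0.71 ± 0.13 in 3D (adjusted p = 5.13e-05) and rose by 2.04 ± 0.13 in 2D (4.13 fold, adjusted p = 9.77e-13), and the difference of the effects, -2.75 ± 0.19, was the largest among the 14 genes (adjusted p = 1.16e-11). With the RNA-quality index as a covariate the difference was -2.90.

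Across the difference of the HGF effect between cultures, 7 of the 14 genes passed and all 7 were lower in 3D: SLC1A4, SLC38A6, SLC1A1, SLC6A6, SLC6A8, SLC38A9 and SLC1A5. Over all tested probe sets 48.3% passed in that comparison, 26.3% as lower and 22% as higher in 3D. The median was -0.40 for the 14 genes and -0.02 over all. For SLC1A4 and SLC6A8 the 2 effects had opposite signs and both passed, on the probe set with the highest mean. In 3D the other tested probe sets of these genes did not pass (-0.14 for SLC1A4, -0.07 and 0.11 for SLC6A8). The SLC6A8 probe set at 0.11 lay below the filter level in every 3D array, so its 3D result says little. For SLC38A6, SLC1A1 and SLC38A9 both effects were falls and the fall was deeper in 3D.

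SLC1A1, also called EAAC1 or EAAT3, takes up glutamate, aspartate and cysteine at the apical face of kidney tubule cells. Its probe set was among the bright ones, at log2 12.45, 12.67, 12.85 and 12.81 in 3D cells with HGF and 14.26, 14.26, 14.25 and 14.32 in 3D controls. In 2D it was 13.49, 13.62, 13.64 and 13.27 with HGF and 13.98, 13.75, 13.72 and 13.78 in controls. Every HGF array was below every control array of its culture, by a wide gap in 3D and a narrow one in 2D. The fall was 1.58 ± 0.09 on the log2 scale in 3D (2.98 fold, adjusted p = 3.81e-14) and 0.30 ± 0.09 in 2D (1.23 fold, adjusted p = 0.00489), and these falls differed by 1.27 ± 0.12 (adjusted p = 5.88e-09).

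SLC38A6, a less studied relative of the SNAT carriers, had the deepest fall of the 14 genes in 3D. It stood at log2 6.26, 7.21, 7.52 and 6.80 with HGF and at 9.47, 9.31, 9.44 and 9.29 in 3D controls. In 2D it stood at 8.83, 8.86, 8.99 and 8.94 with HGF and at 9.63, 9.68, 9.69 and 9.59 in controls. The 3D HGF arrays spread widely (SD 0.542, n = 4) but lay far below the controls. The fall was 2.43 ± 0.16 in 3D (5.38 fold, adjusted p = 8.16e-13) and 0.74 ± 0.16 in 2D (1.67 fold, adjusted p = 0.000258). The lowest of the 3D HGF arrays, replicate 1, and replicate 4 deviated most from their group over all tested probe sets (mean deviation 0.311 and 0.268, against 0.193 and 0.167), and without both the 3D fall of SLC38A6 was 2.01.

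SLC38A9 differs from the others in its place: it sits in the lysosomal membrane, where it senses arginine for mTORC1. Its 3D levels were log2 5.66, 5.53, 5.52 and 5.52 with HGF and 7.43, 7.26, 7.21 and 7.38 in controls. Its 2D levels were 7.21, 7.21, 7.09 and 6.55 with HGF and 8.28, 8.20, 8.19 and 8.21 in controls. Replicates were tight in 3D and the groups did not overlap in either culture. It fell by 1.76 ± 0.13 in 3D (3.39 fold, adjusted p = 4.73e-12) and by 1.20 ± 0.13 in 2D (2.30 fold, adjusted p = 7.54e-09), with a difference of -0.56 ± 0.18 (adjusted p = 0.0112). SLC43A2, or LAT4, which lets branched-chain amino acids, phenylalanine and methionine leave the cell by facilitated diffusion, also fell in both cultures. It read 3.64, 5.10, 4.05 and 5.11 in 3D with HGF and 5.73, 5.66, 5.86 and 5.66 in 3D controls, and 4.34, 5.19, 4.85 and 5.24 in 2D with HGF and 5.94, 6.20, 5.60 and 5.57 in 2D controls. These levels were close to the filter and the HGF arrays scattered, but no HGF array reached a control of its culture. The falls were 1.26 ± 0.26 (adjusted p = 0.00018) and 0.92 ± 0.26 (adjusted p = 0.00412) and did not pass as different from each other (adjusted p = 0.489).

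SLC6A6 carries taurine, an osmolyte of kidney cells, and SLC6A8 carries creatine. SLC6A6 stood at log2 11.96, 11.88, 11.86 and 11.21 in 3D with HGF and at 13.08, 12.89, 13.15 and 12.80 in 3D controls. In 2D it stood at 12.74, 12.41, 12.58 and 12.52 with HGF and at 12.80, 12.85, 12.68 and 12.96 in controls. It fell by 1.25 ± 0.14 in 3D (adjusted p = 1.56e-08), where groups did not overlap, and did not pass in 2D, where they did (-0.26 ± 0.14, adjusted p = 0.113). In 2D it passed in 2 of 17 alternatives (lowest adjusted p = 0.0213). The difference between the effects passed (-0.99 ± 0.20, adjusted p = 0.000167).

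SLC6A8 read log2 9.21, 8.98, 8.94 and 8.50 in 3D with HGF and 9.47, 9.23, 9.27 and 9.12 in 3D controls, and 9.91, 10.02, 9.86 and 9.81 in 2D with HGF and 9.23, 9.36, 9.16 and 9.72 in 2D controls. The 3D groups overlapped and the 2D groups did not. It fell by 0.36 ± 0.13 in 3D (adjusted p = 0.0156), a call lost without 3D HGF replicate 4 (-0.23, adjusted p = 0.103) or 3D control replicate 1 (adjusted p = 0.064) and in 3 other alternatives, at the weakest with its probe sets averaged (-0.11, adjusted p = 0.314), and rose by 0.53 ± 0.13 in 2D (adjusted p = 0.00083). Its effects differed by -0.89 ± 0.18 (adjusted p = 0.000198).

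**Figure D2:**
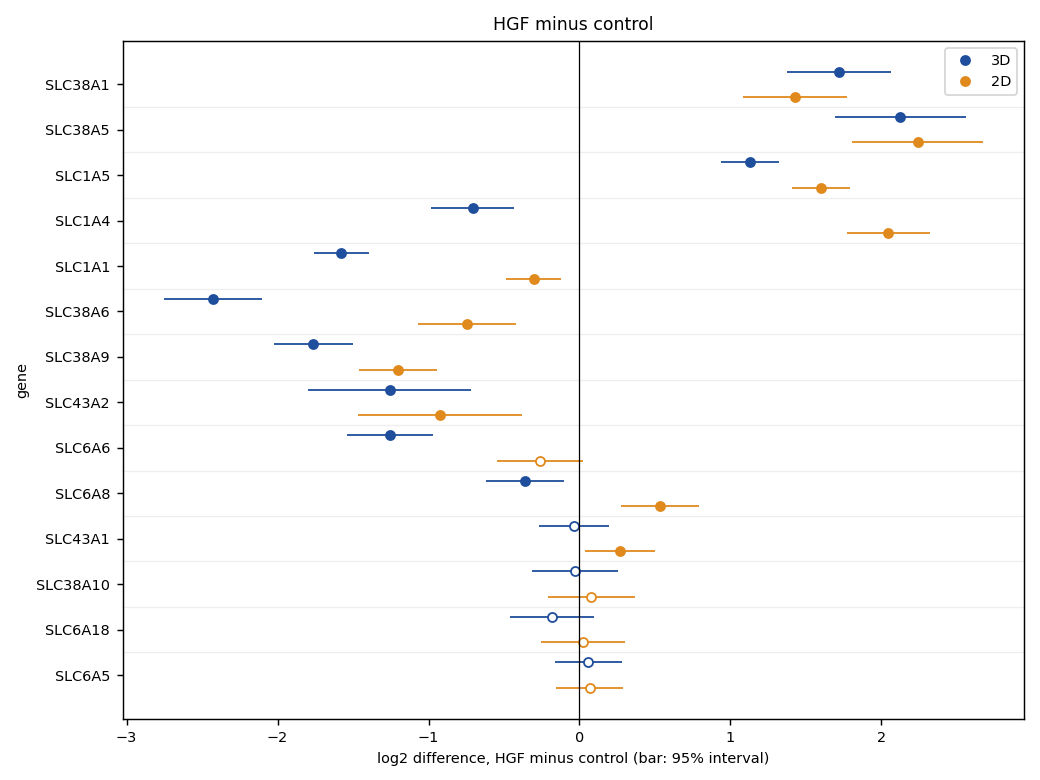
Log2 difference, HGF minus control, of the 14 tested amino acid transporter genes in 3D and in 2D, with bars for the 95% interval; filled points passed at an adjusted p of 0.05 and open points did not. SLC1A4 lies at -0.71 in 3D and 2.04 in 2D, the widest gap between the cultures, while SLC38A1 and SLC38A5 lie close together on the positive side.

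The other 4 tested genes were nearly level. SLC43A1, or LAT3, a leucine carrier related to SLC43A2, ranged over 29 arrays between log2 4.66 and 5.44 and passed the filter in 5 arrays. It rose by 0.27 ± 0.11 with HGF in 2D (adjusted p = 0.0467), with overlapping groups, and did not pass without 2D HGF replicate 2 (0.15, adjusted p = 0.257) or replicate 1, or without 2D control replicate 1, 2 or 4 (adjusted p from 0.0523 to 0.121). With U0126 in 2D its difference was -0.27 (adjusted p = 0.0658), and it passed in 5 alternatives (adjusted p from 0.035 to 0.0465), among them those without 2D HGF replicate 3 or 4. SLC38A10, another SNAT relative, ranged from 7.73 to 8.53, SLC6A18, the neutral amino acid carrier B0AT3 of the renal brush border, from 7.60 to 8.49, and SLC6A5, the glycine carrier GlyT2 best known from neurons, from 5.42 to 6.07. On their brightest probe sets none of these 3 passed in any of the 10 comparisons as fitted. SLC6A18 passed with U0126 in 3D in 3 alternatives, without U0126 replicate 3 (-0.44, adjusted p = 0.0229), after another quantile normalization (-0.39, adjusted p = 0.0229) and with arrays centred on their medians (-0.36, adjusted p = 0.0358). SLC38A10 passed with HGF in 2D when the RNA-quality index was a covariate (0.35, adjusted p = 0.0484), and with both inhibitors in 2D when its probe sets were averaged (0.51 with U0126 and 0.52 with PD-98059). CLTRN, or collectrin, the partner that brings SLC6A18 to the membrane in mouse, had by contrast differences of -2.18 ± 0.31 in 3D and -5.96 ± 0.31 in 2D with HGF (adjusted p = 9.89e-07 and 1.13e-14).

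Culture itself was compared without HGF. Between 3D and 2D controls 4 of 14 passed, 2 up and 2 down, and none by as much as 1 on the log2 scale. Over all tested probe sets 52.3% passed, and a share over 14 genes is no result about transporters. Medians were -0.04 for the genes and -0.03 over all. SLC1A4 averaged 9.05 ± 0.0998 in 3D and 8.47 ± 0.207 in 2D controls (SD, n = 4 each), a rise of 0.57 ± 0.13 in 3D (adjusted p = 0.000769). SLC1A1 averaged 14.27 ± 0.0312 in 3D and 13.81 ± 0.117 in 2D, a rise of 0.47 ± 0.09 (adjusted p = 8.49e-05). SLC38A9 was lower in 3D, 7.32 ± 0.101 against 8.22 ± 0.0426 in 2D, by 0.90 ± 0.13 (adjusted p = 1.42e-06). SLC38A5 was lower by 0.62 ± 0.21 (adjusted p = 0.0164), but its control arrays overlapped and the call was lost without 3D control replicate 3 (adjusted p = 0.093), 2D control replicate 1 (0.0507) or 2D control replicate 2 (0.0585). SLC38A6 (-0.27, adjusted p = 0.157) and SLC6A8 (-0.10, adjusted p = 0.545) did not pass as fitted. Each passed in 1 of 17 alternatives (adjusted p = 0.00686 and 0.016).

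The MEK inhibitors, added with HGF, were compared with HGF alone. These comparisons share the HGF arrays with those of HGF against control, so a gene's HGF and inhibitor differences are not independent and are set side by side only. In 2D, PD-98059 raised 5 and lowered 4 of the 14 genes (52.4% of all tested probe sets passed) and U0126 raised 4 and lowered 4 (50.1% passed). In 3D, PD-98059 raised 6 and lowered 2 (42% passed) and U0126 raised 4 and lowered 3 (49.3% passed). The genes' shares ran from 50% to 64.3%, which over 14 genes is not far from these backgrounds. Medians ranged from -0.09 to 0.12 for the genes and from -0.00053 to 0.05 over all probe sets.

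The neutral carriers fell with both inhibitors in 2D. SLC38A5 read log2 4.81, 5.89 and 5.10 with U0126, 5.80, 5.88, 5.99 and 5.91 with PD-98059 and 7.88, 7.61, 7.81 and 7.83 with HGF alone, with no overlap between either inhibitor and HGF. Its falls were 2.51 ± 0.23 with U0126 (5.71 fold, adjusted p = 7.63e-10) and 1.89 ± 0.21 with PD-98059 (3.70 fold, adjusted p = 2.71e-08). SLC38A1 read 10.58, 9.97 and 10.51 with U0126, 10.05, 10.51, 10.26 and 10.58 with PD-98059 and 11.80, 12.07, 12.00 and 12.00 with HGF alone, and fell by 1.62 with each (SE 0.18 and 0.17). For both genes the arrays of each inhibitor overlapped the range of the 2D controls given above.

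SLC1A4 in 2D was at log2 8.85, 8.95 and 8.99 with U0126 and at 9.28, 8.89, 9.06 and 9.35 with PD-98059, below the 10.38 to 10.76 of HGF alone, with falls of 1.58 ± 0.14 and 1.37 ± 0.13. SLC1A5 was at 9.33, 9.43 and 9.47 with U0126 and at 9.20, 8.87, 9.14 and 9.40 with PD-98059, below 10.37 to 10.59, with falls of 1.10 ± 0.10 and 1.36 ± 0.09. All 4 of these falls passed (adjusted p from 3.27e-12 to 2.12e-09). The inhibitor arrays of SLC1A4 were all above the 2D controls, whose highest was 8.72.

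In 3D SLC38A1 and SLC38A5 fell with both inhibitors too. SLC38A1 was at log2 11.40, 10.67 and 11.54 with U0126, 11.64, 11.07 and 11.31 with PD-98059 and 12.02 to 12.55 with HGF alone, with falls of 1.03 ± 0.18 (adjusted p = 3.11e-05) and 0.89 ± 0.18 (adjusted p = 0.000234). SLC38A5 was at 5.87, 5.67 and 5.91 with U0126, 6.02, 6.27 and 6.46 with PD-98059 and 6.78 to 7.48 with HGF alone, with falls of 1.23 ± 0.23 (adjusted p = 6.52e-05) and 0.80 ± 0.23 (adjusted p = 0.00617). Arrays with an inhibitor lay between those with HGF alone and the 3D controls for both genes, except U0126 replicate 2 of SLC38A1, which was level with the highest control at 10.67. SLC1A5 fell with U0126 (9.46, 9.33 and 9.54 against 9.76 to 10.07 with HGF alone, -0.51 ± 0.10, adjusted p = 0.000145), and with PD-98059 (9.85, 9.89 and 9.84) its difference was -0.09 ± 0.10 and did not pass (adjusted p = 0.523, 95% interval -0.30 to 0.12), but did with arrays centred on their medians (-0.22, adjusted p = 0.0433). Whether an inhibitor's effect differed between 3D and 2D was not tested.

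SLC38A9, SLC38A6 and SLC1A1, which fell with HGF in 3D, were higher there with either inhibitor than with HGF alone. SLC38A9 was at log2 7.48, 7.85 and 7.28 with U0126 and 7.23, 7.23 and 7.12 with PD-98059, against 5.52 to 5.66 with HGF alone, and rose by 1.98 ± 0.14 and 1.63 ± 0.14. SLC38A6 was at 8.60, 8.88 and 8.72 with U0126 and 8.48, 8.49 and 8.56 with PD-98059, against 6.26 to 7.52, and rose by 1.79 ± 0.17 and 1.56 ± 0.17. SLC1A1 was at 14.15, 14.09 and 14.30 with U0126 and 14.17, 14.07 and 14.22 with PD-98059, against 12.45 to 12.85, and rose by 1.48 ± 0.10 and 1.46 ± 0.10. All 6 rises passed (adjusted p from 1.23e-12 to 3.47e-08) and none of the groups overlapped with HGF alone. SLC38A6 with either inhibitor stayed below all 3D controls, which ranged from 9.29 to 9.47.

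In 2D these genes also rose with an inhibitor. SLC38A9 was at log2 8.53, 8.42 and 8.48 with U0126 and 8.41, 8.25, 7.99 and 8.28 with PD-98059, against 6.55 to 7.21 with HGF alone (1.46 ± 0.14 and 1.21 ± 0.13). SLC1A1 rose by 0.54 ± 0.10 with U0126 and 0.68 ± 0.09 with PD-98059, and SLC38A6 by 0.52 ± 0.17 and 0.59 ± 0.16. SLC43A2 was at 5.85, 5.97 and 5.91 with U0126 and 5.87, 5.99, 5.73 and 6.15 with PD-98059, against 4.34 to 5.24, and rose by 1.01 ± 0.28 and 1.03 ± 0.26 (adjusted p = 0.00434 and 0.00176). In 3D the same gene had wide scatter and did not pass, at 5.12, 5.10 and 5.08 with U0126 (0.63 ± 0.28, adjusted p = 0.0696, and 0.0178 or 0.0158 without 3D HGF replicate 2 or 4) and 4.09, 4.73 and 5.20 with PD-98059 (0.20 ± 0.28, adjusted p = 0.621).

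The taurine and creatine carriers responded to the inhibitors unevenly. SLC6A6 in 3D was at log2 12.52, 12.42 and 12.81 with U0126 and 12.81, 13.03 and 13.18 with PD-98059, against 11.21 to 11.96 with HGF alone, and rose by 0.86 ± 0.15 and 1.28 ± 0.15 (adjusted p = 2.99e-05 and 1.06e-07). In 2D it was at 12.49, 12.74 and 12.69 with U0126 and 13.14, 12.92, 13.13 and 13.48 with PD-98059, and rose by 0.61 ± 0.14 with PD-98059 (adjusted p = 0.000572), while with U0126 its difference was 0.08 ± 0.15 (adjusted p = 0.704). SLC6A8 in 3D was at 8.83, 8.79 and 9.13 with U0126 and 9.32, 9.50 and 9.56 with PD-98059, against 8.50 to 9.21 with HGF alone, and rose with PD-98059 by 0.55 ± 0.14 (adjusted p = 0.00192) with a U0126 difference of 0.01. The PD-98059 call of SLC6A8 was lost with only the compared groups in the fit (adjusted p = 0.0545) and with its probe sets averaged (0.21, adjusted p = 0.0881), and that of SLC6A6 in 2D was lost with averaged probe sets (0.17, adjusted p = 0.19). In 2D SLC6A8 did not pass, at -0.02 with U0126 (adjusted p = 0.935) and -0.17 with PD-98059 (adjusted p = 0.285). It passed there in 1 alternative with U0126 and in 2 with PD-98059. SLC1A4 rose by 0.41 ± 0.14 with PD-98059 in 3D (adjusted p = 0.0234), with overlapping groups, and its U0126 difference was 0.33 ± 0.14 (adjusted p = 0.0616), which passed without 3D HGF replicate 1 (0.0257) or U0126 replicate 2 (0.00681). The PD-98059 call of SLC1A4 was lost without 3D HGF replicate 4 (adjusted p = 0.0836), 3D PD-98059 replicate 1 (0.0842) or 3D PD-98059 replicate 3 (0.0973), and in 5 alternatives that kept every array of both groups (adjusted p from 0.0599 to 0.115).

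**Figure D3:**
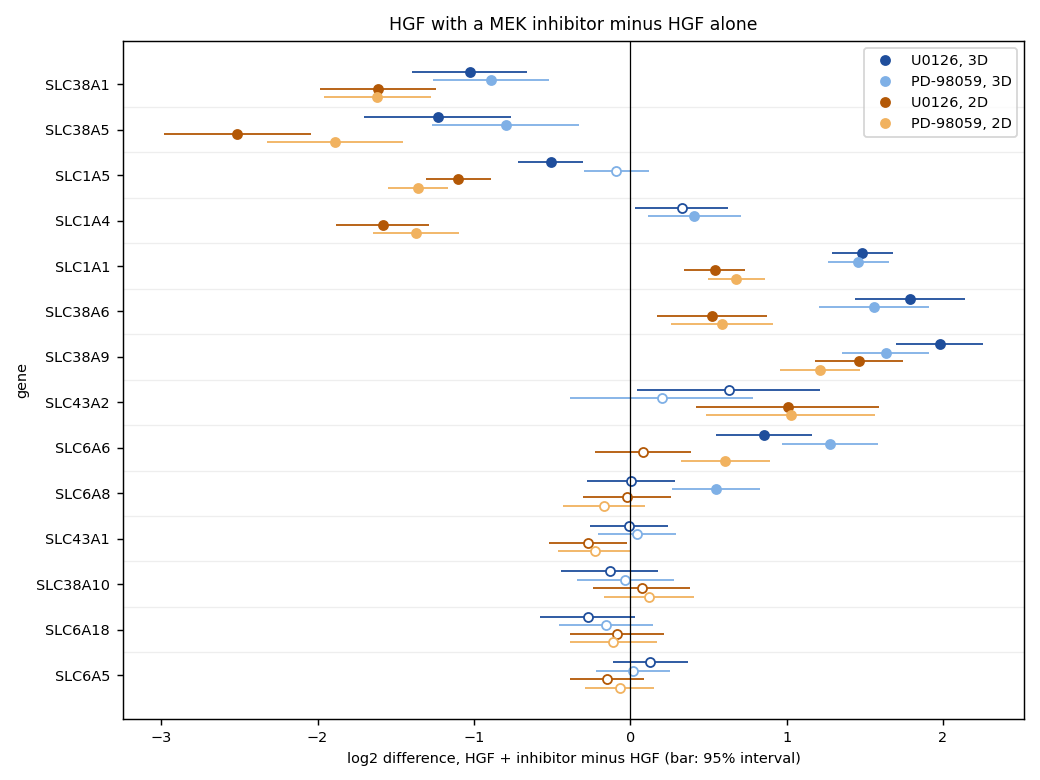
Log2 difference of cells with HGF and U0126 or PD-98059 minus cells with HGF alone, for the 14 tested amino acid transporter genes in 3D and in 2D, with bars for the 95% interval; filled points passed at an adjusted p of 0.05 and open points did not. SLC38A9, SLC38A6 and SLC1A1 lie to the positive side with both inhibitors in both cultures, and SLC38A5 and SLC38A1 to the negative side.

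The inhibitors were also compared directly, in 2 pairs, U0126 against PD-98059 in 3D and in 2D, each adjusted over all tested probe sets. In 3D, 2 of 14 genes passed, both lower with U0126, where 11.8% of all probe sets passed. SLC1A5 averaged 9.44 ± 0.104 with U0126 and 9.86 ± 0.0279 with PD-98059 (SD, n = 3 each), a difference of -0.42 ± 0.11 (adjusted p = 0.0118), which was lost without 3D U0126 replicate 2 (adjusted p = 0.0713). SLC6A8 averaged 8.92 ± 0.188 with U0126 and 9.46 ± 0.123 with PD-98059, a difference of -0.54 ± 0.15 (adjusted p = 0.0157), lost without PD-98059 replicate 2 or 3 or U0126 replicate 1 or 2 (adjusted p from 0.0547 to 0.0851) and with its probe sets averaged (-0.16, adjusted p = 0.365). Without U0126 replicate 3, SLC38A9 (0.47, adjusted p = 0.0454) and SLC6A6 (-0.53, adjusted p = 0.0459) passed as well. In 2D none of 14 passed in limma (3 at an unadjusted p under 0.05), where 1.62% of all probe sets passed. Among these, SLC38A5 had a difference of -0.63 (95% interval -1.10 to -0.16, adjusted p = 0.222) and SLC6A6 of -0.53 (-0.83 to -0.22, adjusted p = 0.0743). SLC38A5 passed without U0126 replicate 2 (-0.94, adjusted p = 0.0413). SLC6A6 passed in 4 of 16 alternatives (lowest adjusted p = 0.0124), among them that without PD-98059 replicate 2 (-0.61, adjusted p = 0.0395). Other tested probe sets of SLC6A6 had differences of -0.43 and -0.46, which did not pass. The compounds' doses are unknown here, so these pairs are not known to be matched in dose.

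Several genes had further probe sets, which bear on how far a level stands for the gene. Of the 54 genes 26 had more than 1 probe set, and 6 of the 14 tested genes had more than 1 that was tested. SLC38A1 had 3, which all rose with HGF, by 1.72 to 2.37 in 3D and 1.43 to 1.78 in 2D. For SLC1A4 the other tested probe set rose by 1.82 ± 0.20 in 2D with HGF (adjusted p = 1.96e-08) and did not pass in 3D (-0.14 ± 0.20, adjusted p = 0.575), so the 3D fall of SLC1A4 rests on the brighter probe set, while the difference between cultures passed on both (-1.96 ± 0.28 on the dimmer one, adjusted p = 3.21e-06).

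SLC6A6 was the gene whose probe sets passed in opposite directions, in 2 of 60 pairs of gene and comparison with more than 1 tested probe set. All 3 of its probe sets fell with HGF in 3D. In 2D with HGF one rose by 1.14 ± 0.17, to an average of log2 8.02, against 6.88 in 2D controls (adjusted p = 2.82e-06), and another fell by 0.50 ± 0.16, to 8.29, against 8.79 (adjusted p = 0.0117). With PD-98059 in 2D the same 2 moved by -0.87 ± 0.17 and 0.77 ± 0.16 (adjusted p = 0.000101 and 0.000288). With U0126 in 2D the first of these fell by 1.31 ± 0.18 (adjusted p = 1.32e-06), and the second did not pass (0.31 ± 0.18, adjusted p = 0.158). The difference of the HGF effect between cultures passed on the first (-1.67 ± 0.24, adjusted p = 2.99e-06) and not on the second (-0.44 ± 0.23, adjusted p = 0.126). The level of SLC6A6 in 2D therefore depends on the probe set read, and its fall in 3D does not.

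SLC6A8 had a dimmer probe set that reached 5.42 on average in 2D cells with HGF and stood between 3.93 and 4.05 in the other 7 groups (1.41 ± 0.20 against 2D controls, adjusted p = 1.56e-06), and another whose group means stayed between 5.83 and 6.07. The dimmer one passed the filter only through 2D HGF replicates 1, 2 and 4. Replicate 3 of that group read log2 4.33, and every array of the other 7 groups lay below log2 5. The dimmer one was thus kept because of its level in 2D HGF cells. Its p-values in comparisons that include that group may therefore be too small. The dimmer one fell by 1.37 with U0126 and with PD-98059 in 2D (adjusted p = 8.5e-06 and 2.53e-06), and the other did not pass. The HGF effect differed between cultures on the dimmer one (-1.30 ± 0.29, adjusted p = 0.000545). On the other the difference did not pass (-0.07 ± 0.15, adjusted p = 0.727). SLC38A10, level on its brightest probe set, had a second one that fell with HGF in 2D (-0.48 ± 0.17, adjusted p = 0.0164) and rose there with U0126 (0.95 ± 0.18, adjusted p = 8.4e-05) and PD-98059 (0.91 ± 0.17, adjusted p = 4.96e-05), and in 3D with PD-98059 (0.47 ± 0.18, adjusted p = 0.0387). A second probe set of SLC6A18 was higher in 3D than in 2D controls (0.37 ± 0.15, adjusted p = 0.0479). It also rose with PD-98059 in 2D (0.40 ± 0.15, adjusted p = 0.0319), and arrays overlapped in both comparisons. Its remaining tested probe set passed in no comparison. The RNA-quality index differed more between HGF and control in 2D than in 3D, as given above, and the part of that difference in the probe sets' disagreement was not tested.

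**Figure D4:**
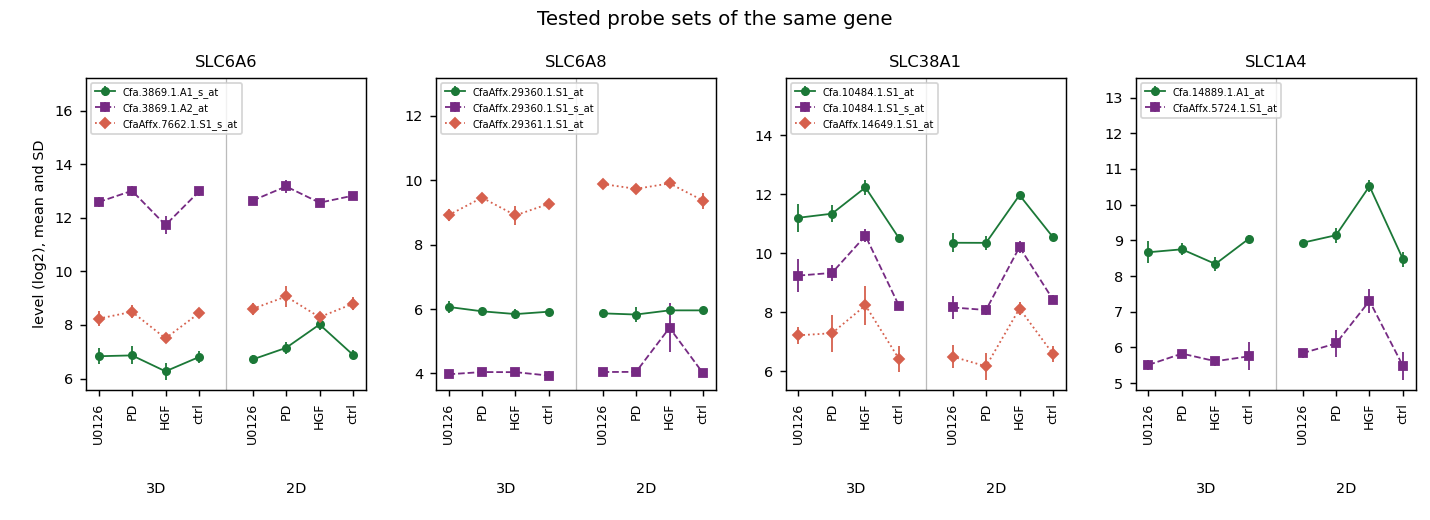
Group means and SD (log2) of the tested probe sets of SLC6A6, SLC6A8, SLC38A1 and SLC1A4 in the 8 groups, 1 line a probe set, with U0126, PD (PD-98059), HGF and control (ctrl) in 3D left of 2D. The 3 probe sets of SLC38A1 run in parallel, and those of SLC6A6 diverge in 2D cells with HGF, where 1 averages 8.02, against 6.88 in controls.

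Among the 40 dim genes, 39 never reached log2 5 in any array, and array values ran from 1.80 to 5.29. Means over 29 arrays were below log2 3 for 34 of them, and the group means of 37 lay within 0.5 of each other. The other 3 were SLC36A4, SLC38A2 and SLC7A11, which were not tested. SLC36A4, a carrier of proline and tryptophan, read 5.29, 3.30, 4.58 and 4.87 in 3D with HGF and 3.15, 3.24, 3.36 and 3.20 in 3D controls, and 4.62, 4.85, 4.56 and 3.90 in 2D with HGF and 3.39, 3.28, 3.23 and 3.35 in 2D controls. In 7 of the 8 HGF arrays it was above all control arrays. With U0126 it read 3.49, 3.13 and 4.34 in 3D and 3.13, 3.16 and 3.75 in 2D, and with PD-98059 3.19, 3.51 and 3.23 in 3D and 3.19, 3.26, 3.24 and 2.28 in 2D.

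SLC38A2 read log2 2.13, 2.10, 3.78 and 3.67 in 3D with HGF and 2.13, 2.41, 3.55 and 2.13 in 2D with HGF, so 3 of 8 HGF arrays stood above the rest of their groups. SLC7A11 stood at 3.20, 3.07 and 2.56 with U0126 and 3.05, 2.51 and 3.39 with PD-98059 in 3D, and at 2.30, 2.33, 2.31 and 3.37 with HGF alone in 3D. At these levels, far under the filter, the values are given as readings without a comparison.

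**Figure D5:**
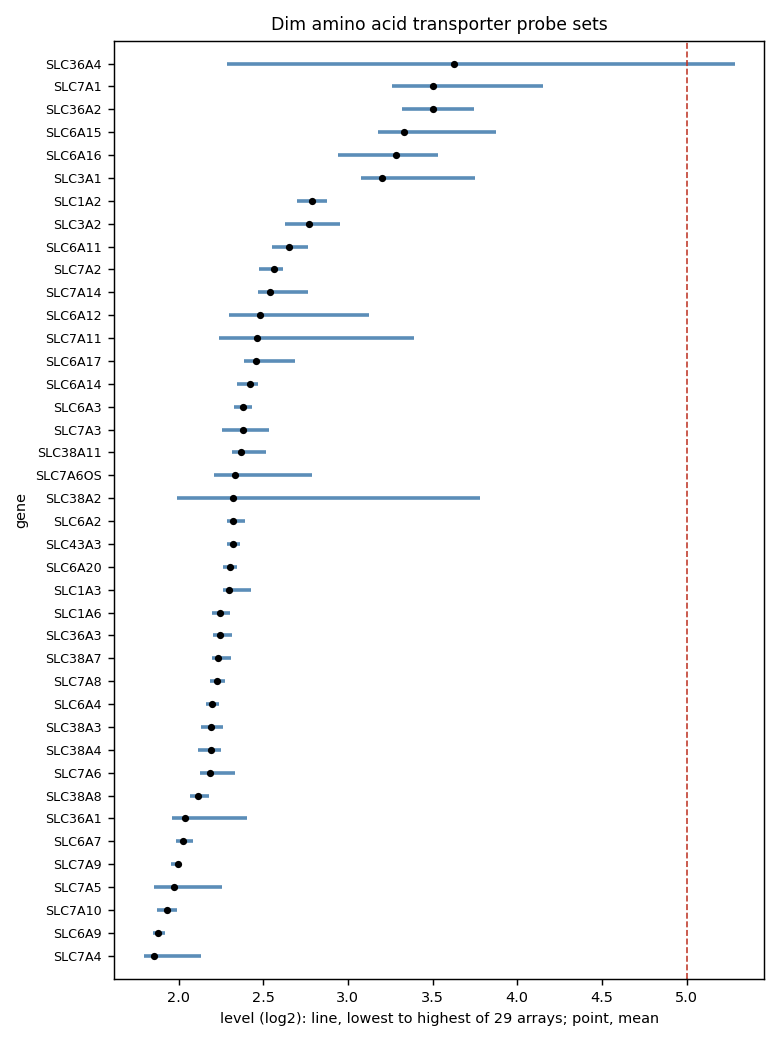
Levels (log2) of the 40 dim amino acid transporter genes, with a line between the lowest and the highest of 29 arrays and a point at the mean; the dashed line marks log2 5. SLC36A4 alone crosses it, at 5.29, and 34 genes have means below 3.

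Genes that make or use amino acids were read beside the transporters. Of 20 listed enzymes 17 were tested, and with HGF 10 rose and 2 fell in 3D and 9 rose and 5 fell in 2D, where 62.1% of all tested probe sets passed in 3D and 55.4% in 2D. ASNS, which makes asparagine from glutamine, rose by 0.62 ± 0.09 in 3D and 1.71 ± 0.09 in 2D (adjusted p = 1.23e-06 and 1.37e-14). BCAT1, the cytosolic branched-chain aminotransferase, rose by 1.22 ± 0.18 and 3.84 ± 0.18, and PYCR1, the last step of proline synthesis, by 1.48 ± 0.12 and 2.06 ± 0.12. For all 3 the rise was smaller in 3D (differences of -1.09, -2.63 and -0.58, all passed). Over the list the difference between cultures passed as higher in 3D for 6 enzymes and as lower for 6. In that comparison 48.3% of all tested probe sets passed. GCLC, which makes the glutathione precursor from glutamate and cysteine, fell by 1.19 ± 0.27 in 3D and 0.97 ± 0.27 in 2D. With inhibitors in 2D, 6 rose and 6 fell with PD-98059 and 5 rose and 6 fell with U0126, and in 3D 6 rose and 2 fell with PD-98059 and 3 rose and 6 fell with U0126 (backgrounds of 52.4%, 50.1%, 42% and 49.3% in that order). Between controls 8 were higher and 4 lower in 3D, and U0126 against PD-98059 gave 4 lower in 3D and 1 lower in 2D, where 52.3%, 11.8% and 1.62% of all probe sets passed.

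Of 30 listed regulators and partners of the transporters 20 were tested, and with HGF 1 rose and 10 fell in 3D and 8 rose and 8 fell in 2D, beside the same 62.1% and 55.4% of all tested probe sets. The amino acid response factor ATF4 rose by 0.96 ± 0.08 in 2D (adjusted p = 5.64e-11), with a difference of -0.05 ± 0.08 in 3D (adjusted p = 0.637), and its target DDIT3 rose by 2.88 ± 0.15 in 2D and fell by 0.58 ± 0.15 in 3D. The difference between cultures passed for both, at -1.01 ± 0.11 and -3.45 ± 0.21. Over the list it passed as higher in 3D for 3 genes and as lower for 9, where 48.3% of all tested probe sets passed. MYC rose by 1.12 ± 0.13 in 3D and 1.50 ± 0.13 in 2D. CASTOR1, the cytosolic arginine sensor of mTORC1, fell by 1.38 ± 0.27 in 3D and 1.08 ± 0.27 in 2D, beside the falls of SLC38A9. PDZK1, a scaffold of apical transporters, fell by 5.38 ± 0.20 and 5.48 ± 0.20 and rose with each inhibitor in both cultures by 5.66 to 6.51. With PD-98059, against the backgrounds just given, 5 of the regulators rose and 3 fell in 3D and 7 rose and 8 fell in 2D, and with U0126 5 rose and 3 fell in 3D and 6 rose and 9 fell in 2D. Between controls 5 were higher and 6 lower in 3D, where 52.3% of all tested probe sets passed. U0126 against PD-98059 gave 1 higher and 2 lower in 3D and none in 2D, where 11.8% and 1.62% passed.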

How the data were processed

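Total RNA of 29 MDCK samples was isolated with a Qiagen kit, transcribed into cDNA and then into biotin-carrying RNA, per the labels. The authors deposited log2 levels per probe set for 43035 probe sets; Partek 6.6, GCRMA, MAS5 and Affymetrix Expression Console 1.1 are the tools in the submitters' processing notes, with role and order not given in the sources used here. The deposited log2 values were used without further normalization. Arrays carry no read depth, and their number per group, 3 or 4, limits the precision.

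Genes were taken from the platform's annotation, in which 29254 probe sets name 1 gene, 439 several and 13231 none; 111 control probe sets were left out. Probe sets at log2 5 or above in at least 3 arrays were tested, 16571 in all. The tests were two-sided, with limma 3.58.1 in R 4.3.3 (lmFit on 8 group means over all 29 arrays, eBayes with a trend), with Benjamini-Hochberg adjustment over all tested probe sets within each of 10 comparisons and a threshold of 0.05. Errors are standard errors of the fit unless given as SD. The fit was tested on simulated data.

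Named with values were, per comparison, up to 5 genes in each direction with the largest differences among those that passed without overlap of arrays, and a fixed set of well-known transporters; all other members are given too. Members, gene lists and tests were chosen with earlier results of these data known. Alternatives were another filter, another normalization, a fit without trend, only the compared groups, averaging the probe sets of a gene, a replicate block, the RNA-quality index as a covariate and each array left out. No genome was used, so no positions are given. Replicate numbers were not shown to pair arrays: same-numbered arrays' deviations correlated between -0.296 and 0.409, and in no comparison did every pair exceed 0.1.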

Additional observations from a re-analysis of the deposited data

Results flagged for a closer look

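Each of the 14 tested genes was read in every group of 4 arrays, giving 70 sets of values that share the same arrays. Of these sets, 6 held an array standing apart from the rest, and chance flags about 1 in 20 sets. These were SLC1A1 in 3D control replicate 4 (log2 14.32), SLC38A10 in 3D control replicate 3 (8.38), SLC38A9 in 3D HGF replicate 1 (5.66), SLC43A1 in 2D HGF replicate 2 (5.44), SLC6A5 in 3D control replicate 2 (5.46) and SLC6A6 in 3D HGF replicate 4 (11.21). For 7 genes the HGF effect differed between 3D and 2D by limma's test of the difference: SLC1A4 (-2.75), SLC38A6 (-1.69), SLC1A1 (-1.27), SLC6A6 (-0.99), SLC6A8 (-0.89), SLC38A9 (-0.56) and SLC1A5 (-0.47), each as the effect in 3D minus that in 2D on the log2 scale.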

How the results depend on the processing

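Of the 140 differences of single genes, 134 kept their side of the threshold with the RNA-quality covariate. The replicate block kept 138 and the fit without trend 139, and of 110 under a stricter filter all were kept. Among those kept, differences that were not called changed sign, 8 with the covariate and 2 with the block. With the replicate block 10, 9, 4 and 7 of the 14 genes passed for HGF in 3D, HGF in 2D, culture and the difference of effects, and SLC43A1 was lost for HGF in 2D (adjusted p = 0.0568). Without a filter on level, 16 of 54 genes passed for HGF in 3D and 7 for 3D against 2D control, since dim genes were then tested too. For U0126 against PD-98059 in 2D, 1 gene passed after another quantile normalization, 1 with the RNA-quality covariate and 1 when the probe sets of a gene were averaged; in 3D 1 passed with that average. With an array left out these counts ran between 0 and 4 in 3D and between 0 and 1 in 2D. SLC6A6 with U0126 in 2D reversed to -0.31 (adjusted p = 0.028) with the average of its probe sets, which oppose each other. Centring each array on its median moved the median of all probe sets for HGF in 3D to 0.0978 and for PD-98059 in 3D to -0.0834, shifts of about 0.1, and turned no called gene; SLC1A4 with PD-98059 in 3D (adjusted p = 0.107) and SLC6A8 with HGF in 3D (0.0698) were then lost, and 3 were gained, SLC1A5 with PD-98059 in 3D (-0.22, adjusted p = 0.0433), SLC6A18 with U0126 in 3D (-0.36, 0.0358) and SLC43A1 with U0126 in 2D (-0.31, 0.0465). The cause was not tested. The limits are 3 or 4 arrays a group, levels near background for SLC38A5, SLC43A1 and SLC43A2, and 40 genes below the level filter.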
